A study of Mus musculus with 6 samples.

Results

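The lysosomal cathepsins described here are 10 genes, *Ctsa*, *Ctsb*, *Ctsc*, *Ctsd*, *Ctse*, *Ctsf*, *Ctsh*, *Ctsl*, *Ctss* and *Ctsz*, chosen by symbol out of 35430 genes whose values could be read from the deposited table. Each of the 10 had its own row, and all 10 were among the 9796 genes that passed the filter for testing, a mean of at least 1 FPKM (fragments scaled by transcript length and by the size of the library) over the 6 libraries. The libraries came from bone marrow-derived macrophages (BMDMs), cells flushed from the femurs of C57BL/6 mice and grown for 7 days with macrophage colony-stimulating factor (M-CSF). The 3 Ctrl libraries were made without drug, and the 3 ZA libraries from cells that had received zoledronic acid (ZA), a nitrogen-containing bisphosphonate given against bone resorption, for 12 h. All cells shared the M-CSF culture. Wild-type C57BL/6 mice were obtained as females 6 weeks old, while the age at which marrow was taken for these cells, the ZA concentration of these libraries and whether the 3 replicates of a group came from separate mice were not given in the sources used here, so p-values measure only the spread between these libraries, which may be technical.

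Cathepsins are proteases that break down proteins delivered to endosomes and lysosomes. Most are made as inactive precursors, tagged with mannose 6-phosphate in the Golgi, carried to the acidic compartment and activated there by cleavage. The cysteine cathepsins use an active-site cysteine and are restrained by cystatins, the aspartic cathepsins D and E work with paired aspartates, and cathepsin A is a serine carboxypeptidase. In macrophages they digest phagocytosed and autophagic cargo and trim antigens and the invariant chain for MHC class II.

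The libraries held 41230600 to 42155808 fragments each, so depth differed little between groups. The 9 listed macrophage markers summed to between 23700 and 27620 FPKM in Ctrl and between 24600 and 28110 FPKM in ZA. Most of that sum was *Lyz2*, at means of 22470 FPKM in Ctrl and 22920 in ZA. The lowest of the 9 was *Mertk*, at a mean of 23.95 FPKM over all libraries. The 6 lymphocyte markers summed to at most 1.30 FPKM and the 6 dendritic cell markers to at most 0.828 FPKM. Transcripts of neutrophil and progenitor cells (12 genes, 33.8 to 53.3 FPKM in sum) and of stromal cells (6 genes, 16.6 to 32.8 FPKM) were present at low level in all 6 libraries. Among all pairs of libraries, ZA replicate 3 and Ctrl replicate 1 were the most unlike, with a chi-square of 16.3 per degree of freedom over their fragments against 3.52 for the closest pair, Ctrl replicates 2 and 3.

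The cathepsins spanned more than 3 orders of magnitude in BMDMs. On the FPKM scale, which corrects for transcript length, *Ctsd* was highest, followed by *Ctsb*, *Ctss*, *Ctsz*, *Ctsa*, *Ctsl*, *Ctsh*, *Ctsc*, *Ctsf* and *Ctse*. The leading ones stood among the most abundant transcripts of the cell, since by mean FPKM *Ctsd* ranked 4, *Ctsb* ranked 8 and *Ctss* ranked 9 of the 9796 genes tested. *Ctsz* ranked 34, *Ctsa* 134, *Ctsl* 156, *Ctsh* 171, *Ctsc* 754, *Ctsf* 4116 and *Ctse* 8102.

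**Figure D1:**
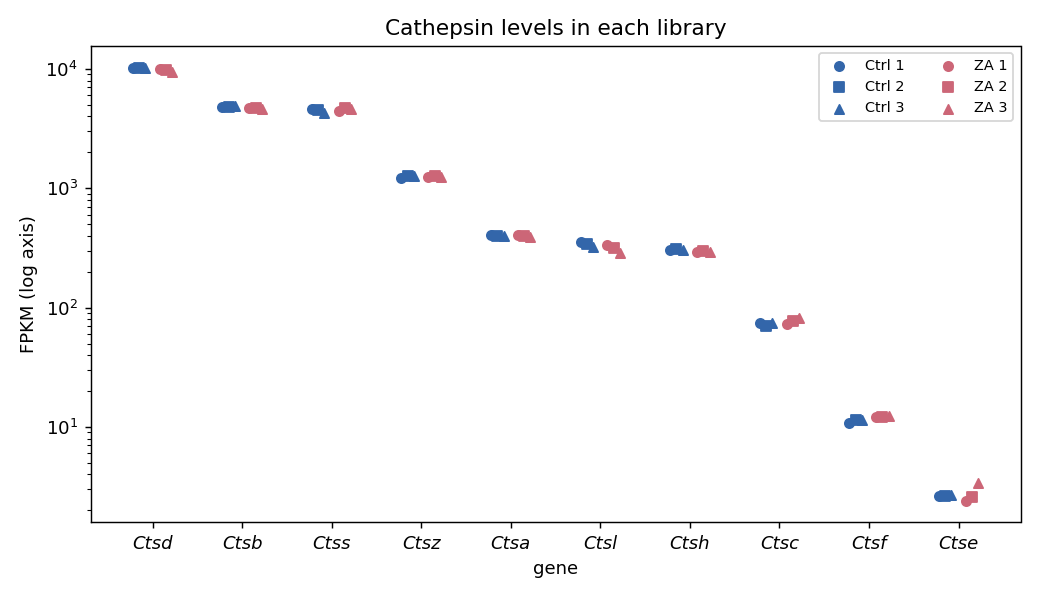
FPKM of each cathepsin (log axis) in the 3 Ctrl (blue) and 3 ZA (red) libraries, genes ordered by their mean, 1 point per library. Levels run from about 10220 FPKM in Ctrl for *Ctsd* to 2.66 FPKM for *Ctse*, and the groups lie close together within each gene.

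Most neighbours in that order were separated well beyond the spread of the libraries. In the Ctrl group no pair of neighbouring cathepsins overlapped. In the ZA group 2 pairs overlapped, *Ctsb* with *Ctss* and *Ctsl* with *Ctsh*. The mean *Ctsb* level was 1.09 times that of *Ctss* in Ctrl and 1.02 times in ZA, and the mean *Ctsl* level was 1.11 times that of *Ctsh* in Ctrl and 1.06 times in ZA. *Ctsd* exceeded *Ctsb* by 2.10 times in Ctrl and 2.07 times in ZA. These ratios of levels are descriptions and were not tested.

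The 10 genes together took a visible part of each library. Their share of all fragments was 5.47%, 5.47% and 5.43% in Ctrl replicates 1 to 3 and 5.34%, 5.32% and 5.19% in ZA replicates 1 to 3. The ranges did not touch, with or without ZA replicate 3, the lowest of the 6. The means were 5.46% ± 0.0264 in Ctrl and 5.28% ± 0.0850 in ZA (SD, n = 3 each). *Ctsb*, *Ctsd* and *Ctss* held between 89.9% and 90.1% of the cathepsin fragments in every library. Measured instead as a share of summed FPKM, which removes the weight of the long *Ctsb* transcript, the 10 genes made up 5.12% ± 0.0621 in Ctrl and 4.99% ± 0.0999 in ZA, and there ZA replicate 1 at 5.08% lay above Ctrl replicate 3 at 5.06%. A sum over chosen genes was given no test. In RNA from whole cultures, fewer cells of a type and less RNA per cell cannot be told apart.

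**Figure D2:**
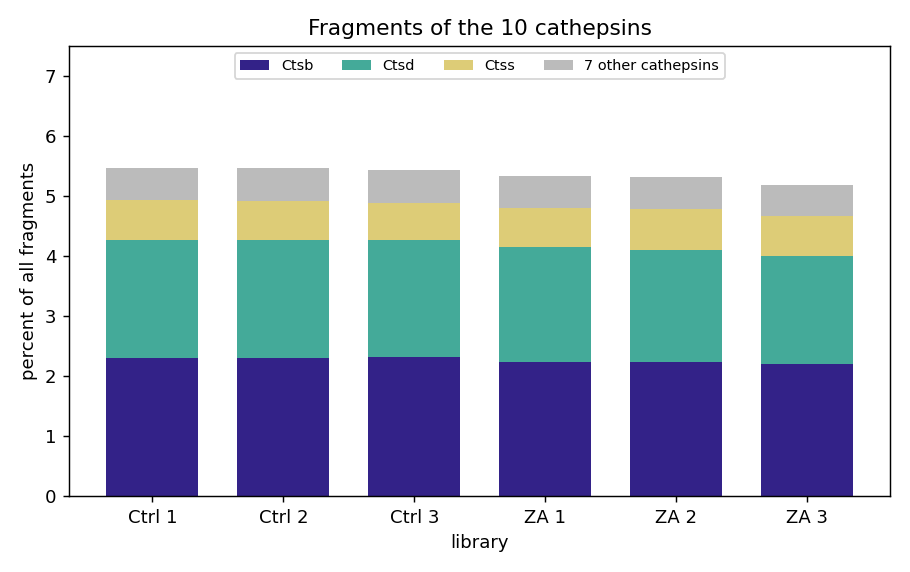
Percent of all fragments (linear axis from 0) held by *Ctsb*, *Ctsd*, *Ctss* and the other 7 cathepsins in each library. The stacks end between 5.43% and 5.47% in Ctrl and between 5.19% and 5.34% in ZA.

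The comparison of ZA with Ctrl asked whether drug exposure moved these transcripts. No cathepsin rose or fell past the threshold: 0 of 10 had an adjusted p under 0.05 (limma on log2(FPKM + 1), Benjamini-Hochberg over all genes tested), where 0.367% of all genes tested did (0.204% higher and 0.163% lower in ZA), and limma voom on recovered fragments also gave 0 of 10. At an unadjusted p under 0.05, 3 of 10 were lower in ZA (*Ctsb*, *Ctsd* and *Ctsh*) and 1 was higher (*Ctsf*), where 4.85% of all genes were lower and 7.49% higher. The same 4 genes were those whose groups did not overlap, against 18.1% of all genes, 6.76% with every ZA library lower and 11.4% with every ZA library higher. By sign alone 5 were lower and 5 higher, and their median log2 fold change was -0.0059 against 0.01 for all genes tested. The unadjusted counts changed on leaving out 1 library. Without ZA replicate 3 or without Ctrl replicate 2 they held 0 lower genes, without Ctrl replicate 1 they held 1 lower and 0 higher, and without ZA replicate 1 they held 2 higher, while without ZA replicate 3 the higher count was also 0. Without Ctrl replicate 2 the fold change of *Ctsb* was -0.0544 ± 0.0241 (SE), against -0.0524 ± 0.018 with all 6 libraries. That of *Ctsd* was -0.0712 ± 0.0343, against -0.0749 ± 0.0269. There the standard errors rose while the fold changes moved little, whereas without ZA replicate 3 *Ctsd* went to -0.0479 ± 0.0222. The plot of fold changes under each processing shows how far single libraries moved each gene.

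**Figure D3:**
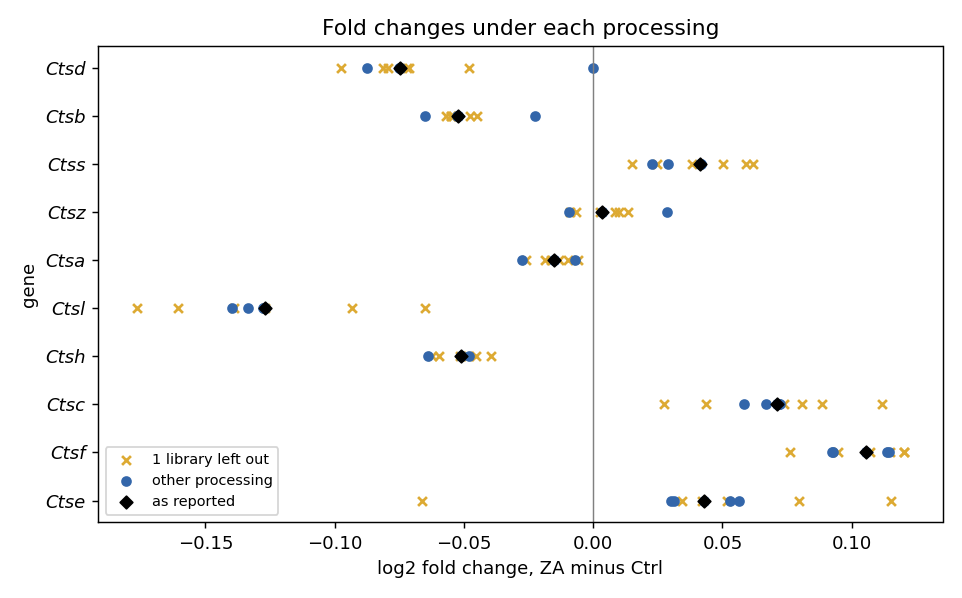
Log2 fold change of each cathepsin (ZA minus Ctrl) as reported (black), with 1 library left out (yellow crosses) and under other processing (blue). *Ctse* and *Ctsz* have points on both sides of 0, *Ctsd* reaches 0 under quantile normalization, and the other 7 genes stay on their side.

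**Figure D4:**
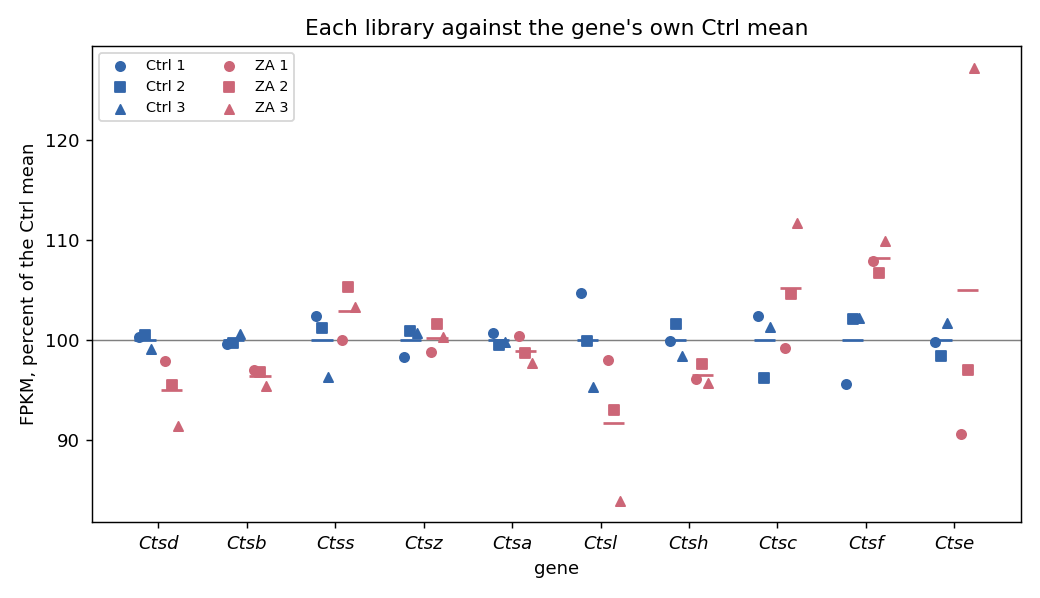
Each library's FPKM as a percent of that gene's Ctrl mean (linear axis), Ctrl blue and ZA red, with group means as short lines. All 3 ZA libraries lie below the Ctrl libraries for *Ctsd*, *Ctsb* and *Ctsh* and above them for *Ctsf*, and the other 6 genes overlap.

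**Figure D5:**
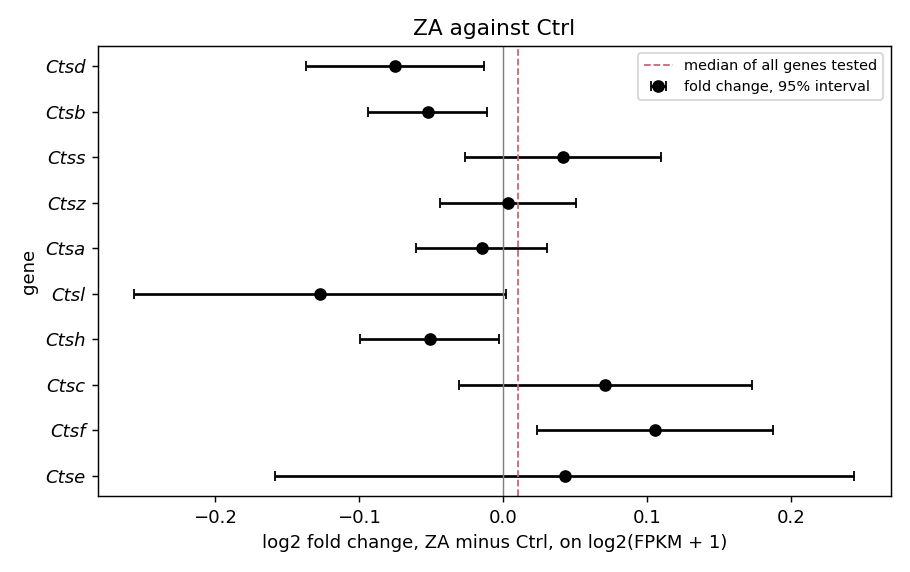
Log2 fold change of ZA over Ctrl on log2(FPKM + 1) with its 95% confidence interval from limma, genes ordered by level. The intervals of *Ctsd*, *Ctsb* and *Ctsh* end below 0 and that of *Ctsf* begins above 0, and no bound is farther from 0 than 0.26.

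The fold changes were small as well as uncalled. In simulated data the fit called only 9 of 50 genes changed 1.1-fold. Those 50 were drawn from all genes tested, at any level above the filter, with noise set by the Ctrl libraries alone. The share of cathepsin changes of that size that would go uncalled was not measured. The 95% intervals of the 10 genes reached at most from -16.3% to 18.4% in the FPKM + 1 of ZA against Ctrl, at *Ctsl* and *Ctse* respectively, so larger changes lay outside the unadjusted interval of each gene. The median size of the log2 fold change was 0.05 among the cathepsins and 0.04 among all genes tested.

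Cathepsin D is the principal aspartic endopeptidase of lysosomes. *Ctsd* measured 10258, 10273 and 10131 FPKM in Ctrl and 10012, 9764 and 9347 FPKM in ZA. Every ZA library lay below every Ctrl library, and ZA replicate 3 lay lowest. The log2 fold change was -0.07 ± 0.03 (SE, n = 3 and 3), a difference of -5.02% between the means, with an unadjusted p of 0.0234 and an adjusted p of 0.321 from limma. The ZA libraries were also more spread, with a coefficient of variation of 3.46% against 0.764% in Ctrl, at 755367 to 819391 *Ctsd* fragments a library. Quantile normalization, which gives equal values to equal ranks, set the fold change of *Ctsd* to 0, and without ZA replicate 3 it was -0.05.

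Cathepsin E, the other aspartic member, is found in endosomes and the endoplasmic reticulum more than in lysosomes. *Ctse* measured 2.66, 2.62 and 2.71 FPKM in Ctrl and 2.41, 2.59 and 3.39 FPKM in ZA. ZA replicates 1 and 2 lay below the Ctrl group and ZA replicate 3 above it. The log2 fold change was 0.04 ± 0.09 (adjusted p = 0.878, limma) and turned to -0.07 without ZA replicate 3, against 0.12 without ZA replicate 1 and 0.08 without ZA replicate 2. Only 211 to 303 fragments a library stood behind these values, a counting error of about 6.44%, whereas the ZA libraries varied by 18.6% and the Ctrl libraries by 1.68%.

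Among the cysteine endopeptidases, cathepsin B can also remove dipeptides from the carboxyl end of its substrates. *Ctsb* measured 4842, 4847 and 4893 FPKM in Ctrl and 4718, 4705 and 4640.0 FPKM in ZA. The groups did not overlap, and the gap between them was wider than the spread within either, 0.583% in Ctrl and 0.887% in ZA as coefficients of variation. The log2 fold change was -0.05 ± 0.02, a difference of -3.57% between the means (unadjusted p = 0.0192, adjusted p = 0.301, limma). Under quantile normalization it was -0.02.

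Cathepsin L is a strong endopeptidase that takes part in the maturation of other lysosomal enzymes. *Ctsl* measured 357, 340.5 and 325 FPKM in Ctrl and 334, 317 and 286 FPKM in ZA. The difference between its means, -8.33%, was the largest of the 10 in size, but it also had the widest spread among the 9 members above 10 FPKM, 4.67% in Ctrl and 7.78% in ZA, and the groups overlapped. The log2 fold change was -0.13 ± 0.06 with an unadjusted p of 0.0531 and an adjusted p of 0.413 (limma). The unadjusted p in limma was 0.0385 under median centring, 0.0422 under quantile normalization and 0.0177 with limma voom. It was 0.0821 without the variance trend and 0.101 without a filter. With the replicate number as a block it was 0.00115, though the labels do not say what a number shares. The adjusted p over all alternatives ran from 0.0638 to 0.671. Leaving out libraries moved the fold change between -0.18 without ZA replicate 1 and -0.07 without ZA replicate 3.

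Cathepsin S keeps activity at neutral pH and carries out the late cleavage of the invariant chain in antigen-presenting cells. *Ctss* measured 4585, 4529 and 4312 FPKM in Ctrl and 4477, 4715 and 4625 FPKM in ZA. The groups overlapped, and the log2 fold change was 0.04 ± 0.03 (adjusted p = 0.607, limma). It was 0.015 without Ctrl replicate 3, 0.0245 without ZA replicate 2 and 0.0226 under quantile normalization. *Ctsf*, which encodes a cysteine endopeptidase able to process the invariant chain in macrophages, measured 10.8, 11.5 and 11.5 FPKM in Ctrl and 12.2, 12.04 and 12.4 FPKM in ZA. It was the only cathepsin higher in all 3 ZA libraries than in every Ctrl library. Its log2 fold change was 0.11 ± 0.04, a difference of 8.22% between the means (unadjusted p = 0.0179, adjusted p = 0.296, limma), at 922 to 1073 fragments a library and a counting error of 3.16%. The coefficient of variation of *Ctsf* was 3.80% in Ctrl and 1.525% in ZA, the latter below the counting error. With limma voom its fold change was 0.1146 ± 0.0507 (unadjusted p = 0.0423). Without Ctrl replicate 1 it was 0.0761 ± 0.0352 (unadjusted p = 0.0652, limma).

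The exopeptidases trim ends. Cathepsin C removes dipeptides from the amino end and activates the serine proteases of myeloid granules. *Ctsc* measured 75.0, 70.4 and 74.2 FPKM in Ctrl and 72.6, 76.6 and 81.7 FPKM in ZA, groups that overlapped, with a log2 fold change of 0.07 ± 0.04 (adjusted p = 0.55, limma). The fold change was 0.11 without ZA replicate 1, 0.03 without ZA replicate 3 and 0.04 without Ctrl replicate 2. Cathepsin H is an aminopeptidase. *Ctsh* measured 306, 311 and 301 FPKM in Ctrl and 294, 299 and 293 FPKM in ZA. All ZA libraries lay below all Ctrl libraries, with a difference of -3.495% between the means and a log2 fold change of -0.05 ± 0.02 (unadjusted p = 0.0408, adjusted p = 0.381, limma).

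Cathepsin Z, also called cathepsin X, removes residues from the carboxyl end. *Ctsz* measured 1227, 1259.8 and 1257 FPKM in Ctrl and 1233, 1268 and 1252 FPKM in ZA. The groups lay on each other, with a log2 fold change of 0.00 ± 0.02, a 95% interval of -0.04 to 0.05 and an adjusted p of 0.967 in limma. Cathepsin A is a carboxypeptidase that also protects neuraminidase 1 and beta-galactosidase in a complex. *Ctsa* measured 405, 399.7 and 401 FPKM in Ctrl and 404, 397 and 393 FPKM in ZA, overlapping groups with a log2 fold change of -0.02 ± 0.02, an interval of -0.06 to 0.03 and an adjusted p of 0.8 in limma, and the fold change ran from -0.0259 without ZA replicate 1 to -0.0099 without Ctrl replicate 1 and -0.006 without ZA replicate 3. These 2 genes had among the smallest spreads of the set, 0.629% to 1.45% in either group's coefficient of variation.

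TFEB and its relatives raise many lysosomal genes through E-box elements around the hexamer CACGTG, so the promoters of the cathepsins were searched for it. RefSeq promoter windows (build GRCm38.p6, 250 bases before to 50 after each start) were on hand for 7 of the 10 genes: *Ctsa*, *Ctsc*, *Ctsd*, *Ctsf*, *Ctsl*, *Ctss* and *Ctsz*. CACGTG, which reads the same on both strands, occurred for 4 of the 7, *Ctsa*, *Ctsd*, *Ctsf* and *Ctsl*, where 7.15% of all 32851 windows and 8.09% of all 27025 genes held it. The longer TCACGTGA, which contains the hexamer, occurred for *Ctsa* and *Ctsd*, against 1.12% of all genes. The 150 bases before the start are shown for the member with the highest level, for *Ctsa*, and for *Ctsf*, the hexamer-bearing member with the opposite sign of fold change, with CACGTG in capitals.
Ctsd (chr7:142387828-142387977, minus strand): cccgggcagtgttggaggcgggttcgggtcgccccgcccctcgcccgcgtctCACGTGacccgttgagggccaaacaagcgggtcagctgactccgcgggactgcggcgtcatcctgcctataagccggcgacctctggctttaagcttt
Ctsa, the downstream of 2 listed starts (chr2:164833623-164833772, plus strand): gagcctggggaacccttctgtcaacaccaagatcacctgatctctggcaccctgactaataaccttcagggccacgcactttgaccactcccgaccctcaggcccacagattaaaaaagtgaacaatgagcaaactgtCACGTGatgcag
Ctsf (chr19:4855015-4855164, plus strand): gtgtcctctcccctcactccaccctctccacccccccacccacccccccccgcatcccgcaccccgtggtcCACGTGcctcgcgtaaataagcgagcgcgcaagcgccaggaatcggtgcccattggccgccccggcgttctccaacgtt

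The hexamer began 98 bases before the start in *Ctsd*, 12 before it in *Ctsa* and 79 before it in *Ctsf*. Further copies, outside the stretches shown, lay 245 bases before the start of *Ctsd*, 236 before that of *Ctsl* and, in *Ctsa*, from base 6 after the start. Of the 4 genes with the hexamer, *Ctsd* had ZA libraries below Ctrl, *Ctsf* above, and *Ctsa* and *Ctsl* overlapped. A match of letters describes the window and is not a measured site.

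The TFEB family and its regulators were measured at levels that differed little between groups. Of 9 genes, all tested, 0 passed at either adjusted or unadjusted p under 0.05 in limma, and the median log2 fold change was -0.0015. *Tfe3*, a TFEB relative, had a mean of 38.4 FPKM in Ctrl and 39.4 in ZA, and *Rragc*, a GTPase that ties nutrient state to the family, had 148 in both.

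Of 12 cathepsin genes outside the 10, 8 were listed at 0 in every library, *Ctsw* and *Ctsg* had means under 1 FPKM, and 2, *Ctsk* and *Ctso*, were tested, both at levels above *Ctsf* and *Ctse*. *Ctsk*, the collagen-degrading cathepsin of osteoclasts, measured 29.1, 29.1 and 25.98 FPKM in Ctrl and 27.7, 27.6 and 25.9 FPKM in ZA (log2 fold change -0.05 ± 0.05, adjusted p = 0.726, limma). *Ctso* averaged 20.3 FPKM in Ctrl and 20.5 in ZA. Neither passed even without adjustment.

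The inhibitors that face the cathepsins were led by cystatin C and stefin B. Of 17 listed genes 16 were in the table, 6 were listed at 0 throughout and 5 were tested, with 0 past an adjusted p of 0.05 and 1 lower at unadjusted p. Of all genes tested, 4.85% were lower at unadjusted p in limma. *Cst3*, the secreted cystatin C, had 1412 ± 26.02 FPKM in Ctrl and 1420 ± 56.5 in ZA (SD, n = 3 each), close to the level of *Ctsz*. *Cstb*, the cytosolic stefin B, had 556 ± 20.7 and 538 ± 11.3 FPKM. The gene that was lower at unadjusted p was *Serpina3g* (log2 fold change -0.23 ± 0.09, adjusted p = 0.342, limma), a low transcript of a family of near copies whose reads could have been split in counting.

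Of 9 other lysosomal peptidases and proteases, all tested, 0 passed limma's adjustment, and 2 were higher and 1 lower without it. Of all genes tested, 7.49% were higher and 4.85% lower without it. The higher count of the list was 1 under median centring and under the replicate block. *Lgmn*, the asparaginyl endopeptidase that cleaves several cathepsins to their mature chains, measured 1094, 1094 and 1078 FPKM in Ctrl and 1061, 1048 and 1058 FPKM in ZA (log2 fold change -0.05 ± 0.02, adjusted p = 0.369, limma). *Ppt1*, a thioesterase that removes fatty acids from proteins, had 68.7 FPKM in Ctrl and 73.0 in ZA, and *Scpep1*, a serine carboxypeptidase, 199.8 and 208. The groups of *Lgmn*, *Ppt1* and *Scpep1* did not overlap, which held for 18.1% of all genes tested.

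Genes of sorting to the lysosome showed no passing member in the fit as reported. Of 11 sorting and mannose 6-phosphate genes, all tested, 0 passed with or without adjustment, at a median log2 fold change of -0.0184. Under median centring and under the replicate block, 1 was lower at unadjusted p in limma. *M6pr*, the cation-dependent mannose 6-phosphate receptor, measured 155, 154 and 153 FPKM in Ctrl and 148, 151 and 152 FPKM in ZA. *Scarb2*, the receptor that carries beta-glucocerebrosidase, had 52.4 FPKM in Ctrl and 51.6 in ZA.

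Among 13 lysosomal membrane and partner proteins, all tested, 0 passed with adjustment, and 1 was higher and 2 were lower without it. Of all genes tested, 7.49% were higher and 4.85% lower without it. Under median centring the list held 0 higher and 3 lower genes. *Psap*, the precursor of the saposins and at a level near *Ctsd*, measured 9766, 9932 and 9779 FPKM in Ctrl and 9527, 9318 and 9075 FPKM in ZA, with every ZA library lower (log2 fold change -0.08 ± 0.02, adjusted p = 0.233, limma). *Cd63*, a tetraspanin of late endosomes, had 713 FPKM in Ctrl and 680.4 in ZA. *Npc2*, which hands cholesterol out of the lysosome, had 509.6 and 530.4 FPKM. *Lamp1*, the main membrane glycoprotein, had 1542 and 1561 FPKM, an unadjusted p of 0.343 in limma. In this list every ZA library was lower for *Psap*, *Cd63* and *Laptm5* and higher for *Npc2*, *Lamp1*, *Lamp2* and *Cd68*. Over all genes tested, 18.1% had groups that did not overlap, 6.76% with every ZA library lower and 11.4% with every ZA library higher.

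Of 8 antigen presentation partners of the cathepsins, all tested, 0 passed with adjustment and 1 was higher without it, *Ciita*, the MHC class II transactivator (log2 fold change 0.16 ± 0.07, adjusted p = 0.398, limma). Of all genes tested, 7.49% were higher without it. The groups of *Ciita* overlapped, and the list held 0 higher genes under median centring or under the replicate block. *Cd74*, the invariant chain that cathepsin S cleaves, measured 876, 856 and 826 FPKM in Ctrl and 787, 857 and 942 FPKM in ZA, a wider spread in ZA than in Ctrl. *H2-Aa*, an MHC class II chain, had 256 FPKM in Ctrl and 247 in ZA.

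Markers of cells in and around the culture were measured beside these values, and their part in the cathepsin values was not tested. In no marker list did a gene pass limma's adjustment. At unadjusted p in limma, 7.49% of all genes tested were higher in ZA and 4.85% were lower. Of 9 macrophage markers, all tested, 3 were higher at unadjusted p, *Csf1r* (772 FPKM in Ctrl, 835 in ZA, adjusted p = 0.0701), *Adgre1* (532 and 580.5, adjusted p = 0.0785) and *Cd14* (208 and 226, adjusted p = 0.332). *Cd68* had 1332 FPKM in Ctrl and 1348 in ZA (adjusted p = 0.737). Of 12 neutrophil and progenitor markers, 7 were tested and 4 were lower at unadjusted p, *Prtn3*, *Mpo*, *Elane* and *Ngp*, with list sums of 37.7 to 53.3 FPKM in Ctrl and 33.8 to 39.0 in ZA, and *Ctsg* had a mean of 0.89 FPKM. Of 8 osteoclast markers 3 were tested, and *Acp5* and *Itgb3* were lower at unadjusted p, at sums of 53.5 to 62.3 FPKM in Ctrl and 49.3 to 55.5 in ZA. Of 6 stromal markers 4 were tested and *Dcn* was lower at unadjusted p, at sums of 18.3 to 32.8 FPKM in Ctrl and 16.6 to 23.6 in ZA, while *Col1a2* had 7.60 and 6.28 FPKM. Under the replicate block 4 stromal markers were lower at unadjusted p in limma. None of the 6 dendritic cell or 6 lymphocyte markers reached the filter, the highest being *Siglech* and *Ccr7* at means of 0.243 and 0.199 FPKM and *Cd79a* and *Nkg7* at 0.352 and 0.236.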

How the data were processed

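The 3 Ctrl and 3 ZA libraries were sequenced as 150 bp paired-end reads. Whether each came from a separate culture was not given in the sources used here. The deposited table gives FPKM per gene symbol. The submitters' processing notes name build mm9, and aligner, counter, annotation and strand use were not given in the sources used here, so overlapping genes cannot be told apart. The labels name both a VAHTS and a SMARTER library kit.

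Per the file headers each row holds a symbol and 6 values, but only 11 of 35434 rows kept all their separators. The number formats alone fixed the cut of 21489 rows (1 possible cut) and 13941 rows, all 10 cathepsins included, were split at the point at which every value was a whole number of fragments at some transcript length, 3 powers of 10 ahead of the next cut. The 11 intact rows came back identical, and 4 rows were left out. A first form of the rule left out more rows and was changed after that was seen. Both the cutting and the limma fit were tested on simulated data, the simulated rows having the number forms that the rule assumes. In the simulated fit, 9 of 50 genes changed 1.1-fold and 33 of 50 changed 1.25-fold were called in the right direction.

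Library totals and fragments were computed from the same step, and counting errors cover counting only. limma 3.58.1 (R 4.3.3; lmFit, eBayes with trend, two-sided, Benjamini-Hochberg) was run on log2(FPKM + 1) for genes with a mean of at least 1 FPKM, without covariates, and a p or adjusted p under 0.05 is given as passing. Fold changes on this scale understate those of low genes. All 15 pairs of libraries differed beyond sampling noise, so none was counted as a duplicate. The cathepsins and the gene lists were chosen with earlier results of these data known. All 10 cathepsins are named. From each list, genes with an unadjusted p under 0.05 and the 2 highest by mean FPKM are named, and where these exceed 4 only the 4 with the smallest p, except that members of the marker and cathepsin lists just under the filter were named after their values were seen. *Lyz2*, *Mertk*, *Lamp2* and *Laptm5*, and *Cd68* among the lysosomal membrane genes, were also named after their values were seen. Alternatives were another pseudocount, other filters, median centring, quantile normalization, no variance trend, limma voom, a replicate block, single-cut rows and leaving out each library.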

Additional observations from a re-analysis of the deposited data

How the results depend on the processing

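The finding that 0 of 10 cathepsins passed an adjusted p of 0.05 held under every alternative that gave them a value, with the smallest adjusted p at 0.0638, for *Ctsl* under the replicate block. The number of unadjusted cathepsins lower in ZA went from 3 to 4 under median centring, limma voom and the replicate block, where *Ctsl* joined, to 2 under quantile normalization, to 1 without a filter and to 0 without the variance trend, and ranged from 0 to 3 when 1 library was left out. The higher count went from 1 to between 0 and 2 on leaving out libraries. *Ctse* ranged from -0.0663 without ZA replicate 3, a reversal, to 0.1151 without ZA replicate 1, and *Ctsz*, near 0 throughout, reversed to -0.0094 under median centring, to -0.0089 without Ctrl replicate 1 and to -0.0065 without ZA replicate 2. Its highest values were 0.0136 on leaving out a library, without ZA replicate 1, and 0.0287 under quantile normalization. *Ctsd* went to 0 under quantile normalization because the method gives equal ranks equal values. *Ctsb* and *Ctss*, ranked 8 and 9 by mean FPKM, went to -0.0226 and 0.0226 under the same method, which likewise sets their values by rank. The causes of the other shifts were not tested.

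Over all genes, 36 passed with adjustment, against 1 without a filter, 20 under quantile normalization, 1 without the variance trend, 132 with limma voom and between 0 and 25 when 1 library was left out (0 without ZA replicate 2, 1 without Ctrl replicate 1 or 2). Rows with 1 possible cut gave 0 (31 at unadjusted p) and held no cathepsin, so that alternative gave no cathepsin value. With the sum of FPKM as denominator, the cathepsin share was 5.12% in Ctrl and 4.99% in ZA. Of the 34 counts per list and direction, 5 moved by more than 1.5 times under median centring and 5 under the replicate block.

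The labels give both groups replicates 1 to 3 without saying what a number shares. Deviations of same-numbered libraries correlated at 0.284, 0.0396 and 0.28. Each library correlated best with its own number, a hint from the data and not from the design. For Ctrl replicate 2 the lead was slight, since it correlated at 0.0332 with ZA replicate 3. Under the replicate block 78 genes passed, and 1 gene of the lists, the osteoclast marker *Itgb3*, which had not passed without it. Depth limits *Ctse* and *Ctsf* most.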
